A study of Mus musculus with 2 samples.

Results

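Transcript assembly gives an XLOC identifier to each stretch of genome that reads cover, and it does so for stretches that add to a known gene as well as for stretches far from any gene. The loci described here are the XLOC rows of the expression table whose printed locus overlaps, by at least 1 bp on the same chromosome, the printed locus of a row that carries an Entrez gene identifier. Strand was not used. Rows of this kind numbered 6666 of 24440, and 733 of these overlapped an Entrez row. The 420 whose larger FPKM was at least 1 were kept, and 313 were not. FPKM counts sequenced fragments relative to transcript length and library size. The members were thus chosen by FPKM in the same libraries that are compared below, so the counts describe these loci and test nothing.

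CD4+ T cells came from C57BL/6 mice, wild type and 6 to 8 weeks old, and were cultured for 48 h under conditions that drive Th17 differentiation. The T cells were wild type in both groups, and only the antigen presenting cells (APCs) of the cultures differed: WT-APCs in one group and OX40L-TG APCs, which carry a transgene for the ligand of the costimulatory receptor OX40, in the other. Each library was built from 1 µg of RNA, extracted from 5000000 T cells after culture. The labels do not say which promoter drives the transgene or how many mice gave cells. There was 1 library per condition, so differences have no replicate check, there is no p-value, and every statement compares 2 libraries.

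Assembled loci of this kind can hold many sorts of transcript. An intron that is retained or not yet spliced, an antisense or long noncoding RNA, an unannotated first or last exon, the host transcript of a miRNA, and a repeat or a ribosomal or small nuclear RNA copy inside a gene all give reads that known gene models do not take up. OX40 itself signals through the NF-kB pathway, which acts with AP-1 and NFAT on activated T cell genes such as Tnfrsf9. Tnfrsf9 encodes the costimulatory receptor 4-1BB.

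The printed locus did not place a member within a gene. All 420 members carried exactly the locus of at least 1 Entrez row, where the rule asked only for an overlap of 1 bp. Where the label said more, it was the tag after the XLOC identifier. Of the 420 tags 234 were Entrez identifiers of 206 genes, 177 began with n, a kind of identifier left unexplained in the table, and 9 were empty. For 232 of these 234 members the tagged gene overlapped the printed locus in the RefSeq gene table, though it could run beyond it. For 0 it lay elsewhere, and for 2 it was not in that table. The tagged genes were protein coding for 179 members, long noncoding RNA for 44, transcribed pseudogenes for 6, miRNA for 2 and snRNA for 1. For 196 members the tagged gene also had a row of its own at that locus, and for 38 it had none anywhere in the expression table. Exonic, intronic and UTR positions are therefore not given. The members filled 314 printed loci on 20 chromosomes, with 41 members on chromosome 6. The loci spanned 1147 bp to 2.91 Mb with a median of 74965 bp, against a median of 595 bp for the other XLOC rows. Members that share a printed locus are not replicates of each other: 261 loci held 1 member and 53 held several, up to 11.

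Sequences upstream of 4 tagged genes are shown because their assembled loci gave the largest differences among abundant members (Tnfrsf9, Mmd and 9130015A21Rik) or made up the largest group at 1 locus (Clec2g). Each is the 250 bases before an annotated start, 5′ to 3′ on the gene's strand, from RefSeq on GRCm38.p6. Capitals mark motif matches on either strand. The motifs were AP-1 (TGANTCA), NFAT (TGGAAA) and NF-kB. Among 32817 windows of the same length, 6.75% held an AP-1 match, 18.6% an NFAT match and 3.90% an NF-kB match. The windows are chr4:150919905-150920154 (+) and chr4:150927749-150927998 (+) for 2 starts of Tnfrsf9, chr11:90249226-90249475 (+) for Mmd, chr6:128934131-128934380 (+) for Clec2g and chr12:35695119-35695368 (-) for 1 start of 9130015A21Rik.
Tnfrsf9, start 1: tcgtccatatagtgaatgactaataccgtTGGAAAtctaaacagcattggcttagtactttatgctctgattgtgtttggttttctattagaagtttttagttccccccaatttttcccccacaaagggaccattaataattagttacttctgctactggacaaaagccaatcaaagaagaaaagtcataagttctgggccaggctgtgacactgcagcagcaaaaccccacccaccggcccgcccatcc
Tnfrsf9, start 2: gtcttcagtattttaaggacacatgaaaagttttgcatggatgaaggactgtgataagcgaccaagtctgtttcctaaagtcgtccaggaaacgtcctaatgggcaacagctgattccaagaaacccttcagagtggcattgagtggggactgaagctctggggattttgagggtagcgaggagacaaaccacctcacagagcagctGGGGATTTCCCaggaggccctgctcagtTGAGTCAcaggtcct
Mmd: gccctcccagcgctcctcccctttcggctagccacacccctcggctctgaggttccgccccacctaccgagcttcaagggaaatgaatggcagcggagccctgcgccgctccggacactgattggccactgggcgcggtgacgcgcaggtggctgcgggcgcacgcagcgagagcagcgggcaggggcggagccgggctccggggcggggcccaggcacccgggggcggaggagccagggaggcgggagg
Clec2g: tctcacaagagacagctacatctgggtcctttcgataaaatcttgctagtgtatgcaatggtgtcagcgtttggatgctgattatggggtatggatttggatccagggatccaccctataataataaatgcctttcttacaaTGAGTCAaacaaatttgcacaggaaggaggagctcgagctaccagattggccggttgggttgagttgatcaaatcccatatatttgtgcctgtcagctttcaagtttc
9130015A21Rik: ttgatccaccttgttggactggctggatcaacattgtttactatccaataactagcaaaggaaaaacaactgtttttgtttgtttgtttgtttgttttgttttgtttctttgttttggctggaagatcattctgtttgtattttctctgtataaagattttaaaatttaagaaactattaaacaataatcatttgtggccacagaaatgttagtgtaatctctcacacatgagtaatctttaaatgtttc
The first Tnfrsf9 window held 1 NFAT match. The second held an NF-kB match at 2 overlapping positions and 1 AP-1 match, which are the 2 capital runs near its end. The Clec2g window held 1 AP-1 match, and the Mmd and 9130015A21Rik windows held none of the 3 motifs. A match is a description of letters and not a binding site.

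Most members were of low abundance. Mean FPKM was under 2 for 262, from 2 to 5 for 98, from 5 to 10 for 36 and at least 10 for 24. The median over members was 1.85 FPKM in the WT-APC library and 1.30 in the OX40L-TG-APC library. Both libraries reached 1 FPKM for 231 members, only the WT-APC library for 146 and only the OX40L-TG-APC library for 43. A member that passed through 1 library only had to differ. Just inside the threshold were XLOC_002392 at 1.00 and 0, XLOC_032011 at the Cd160 locus at 1.00 and 0.964, and XLOC_036570 at 1.01 and 0.856. Just outside were XLOC_010720 at the Rad51b locus at 0.959 and 0.998, XLOC_045539 at the Sult1a1 locus at 0.994 and 0.468, and XLOC_021787 at 0.992 and 0.811. In each of these pairs the WT-APC value comes first, as it does below.

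More members were lower than higher with OX40L-TG APCs, most of them weak members. Change is the log2(FPKM + 1) of the OX40L-TG-APC library minus that of the WT-APC library, a scale that shrinks the change of low rows. By this measure 15 members were at least 2-fold higher (3.57%) and 82 at least 2-fold lower (19.5%), in the latter case at 68 loci. Only 4 of the higher and 13 of the lower members reached 1 FPKM in both libraries. The rest passed the filter only through the library in which they were high, so their direction was fixed by the filter. Over all 15742 rows at 1 FPKM or more, 2.46% were higher and 6.68% lower. For Entrez rows these shares were 2.26% and 1.32%, and for XLOC rows away from Entrez rows 3.64% and 27.2%. The median change was -0.32 over members, 0.05 over all rows, 0.11 over Entrez rows and -0.42 over the other XLOC rows. Pooled over levels, the members lay between the Entrez rows and the other assembled loci. Members below 0 numbered 298 and members above 0 numbered 122, with changes from -2.71 to 1.99.

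**Figure D1:**
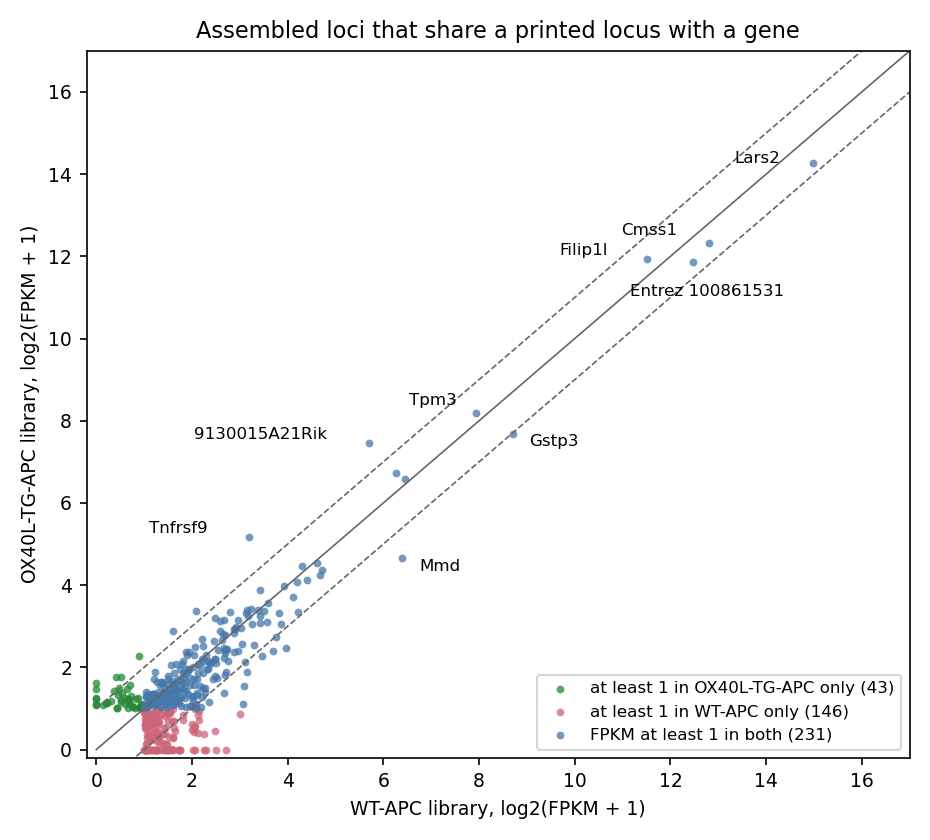
Each point is 1 of the 420 assembled loci, with log2(FPKM + 1) in the WT-APC library on the x axis and in the OX40L-TG-APC library on the y axis. Colours give the libraries in which it reached 1 FPKM (231 both, 146 WT-APC only, 43 OX40L-TG-APC only), the solid line is equality and the dashed lines are 2-fold. Most points past a dashed line sit at low levels, and Tnfrsf9, 9130015A21Rik and Mmd stand off the line at higher levels.

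**Figure D2:**
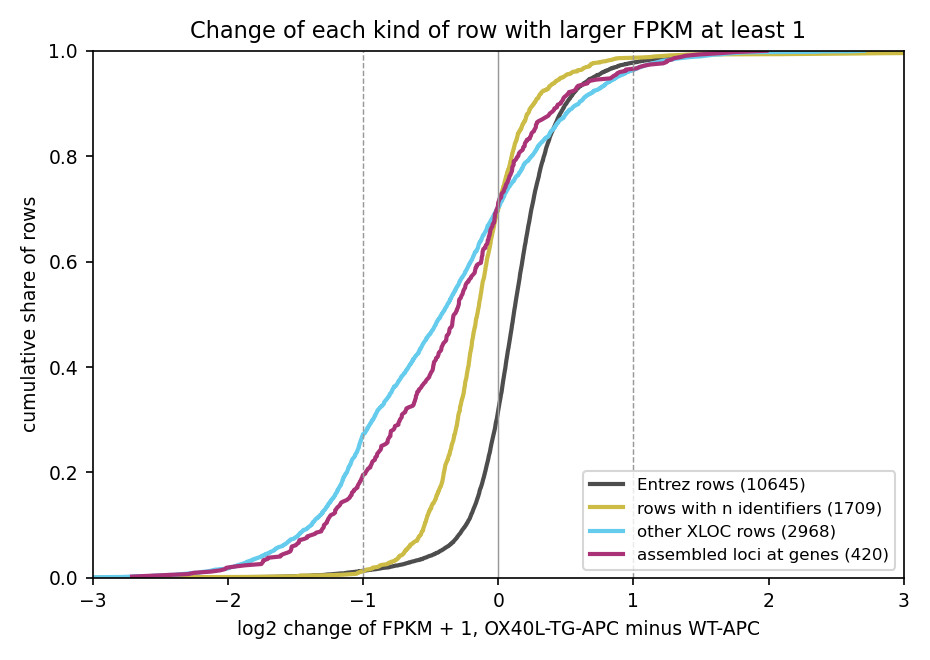
Cumulative share of rows (y axis) at or below each log2 change of FPKM + 1, OX40L-TG-APC minus WT-APC (x axis), for the members and for the other kinds of row at 1 FPKM or more. The axis ends at 3 in either direction. At the 2-fold lower line the curve of the members (19.5%) lies between that of the Entrez rows (1.32%) and that of the other XLOC rows (27.2%). The medians are -0.32, 0.11 and -0.42, and near 0 the curves of the members and of the other XLOC rows meet.

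Lower members were a larger share at low levels, and many were listed at 0. The share at least 2-fold lower was 22.9% for members under 2 FPKM, 15.3% from 2 to 5, 13.9% from 5 to 10 and 8.33% at 10 or more. Of the 82 lower members 39 were listed at 0 with OX40L-TG APCs, and 5 of the 15 higher ones were listed at 0 with WT-APCs. Only 7 lower and 3 higher members had a mean of at least 5 FPKM. The same shares were 2.75%, 2.65%, 1.16% and 0.836% for Entrez rows, and 29.6%, 22.7%, 5.68% and 0% for the other XLOC rows. The members' share was thus below that of the other XLOC rows under 5 FPKM and above it from 5 FPKM up, where the members were few. Under 2 FPKM, 83 members reached 1 FPKM in both libraries, and on this scale such rows cannot be 2-fold lower. All 60 lower members at that level therefore passed the filter only with WT-APCs. The same limit holds for Entrez rows and other XLOC rows, so the filter and the scale shape these shares by level. Among the 231 members at 1 FPKM or more in both libraries, 4 were higher and 13 lower (5.63%), with a median of -0.12. For the other XLOC rows at 1 FPKM or more in both, 4.19% were lower and the median was -0.05. Over all rows at 1 FPKM or more in both, 1.56% were higher and 1.28% lower. Past 4-fold were 8 of the lower members, and 0 of the higher ones. Zeros were listed for 10.5% of members, 17.5% of the other XLOC rows and 0.113% of Entrez rows.

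The 4 most abundant members carried a measurable part of both libraries. Together they summed to 48085 FPKM in the WT-APC library and 32447 in the OX40L-TG-APC library, 7.50% and 4.81% of the FPKM total. XLOC_053715 lies at the locus of Lars2 (chr9:123366939-123462664), which encodes the mitochondrial leucyl-tRNA synthetase. It stood at 32394 and 19751 FPKM, while the row of Lars2 itself stood at 3.60 and 2.90. XLOC_019804 and XLOC_020581 share 1 locus (chr16:57301999-57606956) and are tagged Cmss1 and Filip1l. The first was lower with OX40L-TG APCs, at 7106 and 5107, and the second was higher, at 2919 and 3893. The rows of both genes were far below these levels, at 10.2 and 12.6 for Cmss1 and 5.17 and 4.60 for Filip1l. XLOC_022793 is tagged with Entrez 100861531 (chr17:39842996-39848829) and stood at 5666 and 3696, against 2321 and 2787 for the row of that gene. GENCODE places the rRNA gene CT010467.1 inside that locus. None of the 4 differed by 2-fold, and the largest of their changes was -0.71.

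Other abundant members differed in direction. XLOC_025783 is tagged Gstp3, of the pi class of glutathione S-transferases, whose genes are close copies that can share reads. It stood at 415 and 205 FPKM, a change of -1.01, while the row of Gstp3 stood at 105 and 110. XLOC_031830, tagged with the tropomyosin gene Tpm3, stood at 244 and 291, and the row of Tpm3 stood at 60.3 and 72.1, so both were slightly higher with OX40L-TG APCs. XLOC_025762, which has no tag, stood at 87.2 and 94.4 at the Gm7102 locus, where GENCODE has the snRNA gene Gm22365, and was short of 2-fold.

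The assembled locus with the largest positive change carried the tag of Tnfrsf9. XLOC_035640 stood at 8.12 FPKM in the WT-APC library and 35.1 in the OX40L-TG-APC library, a change of 1.99. The row of Tnfrsf9 stood at 5.49 and 25.7, so the tagged locus and the gene differed in the same direction by nearly the same amount. The printed locus (chr4:150828224-151861768) also covers Camta1, Per3, Vamp3, Park7 and Errfi1. The other abundant member above 2-fold was XLOC_011514, tagged with the long noncoding RNA gene 9130015A21Rik (chr12:35672289-35695118). It stood at 51.0 and 175, a change of 1.76. The row of 9130015A21Rik stood at 0.607 and 0.150, so nearly all FPKM printed under this gene's name was in the assembled locus, and the gene's own row was not higher. GENCODE also has Gm34047 there, on the opposite strand, and without strand the 2 cannot be told apart.

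The remaining large positive changes were of low members. Listed at 0 with WT-APCs and at 2.09 with OX40L-TG APCs was XLOC_041254, at the locus of the caspase gene Casp2, whose own row stood at 26.9 and 21.7. XLOC_046469, tagged with the cyclin gene Ccne1, stood at 0.00045 and 1.80, and the other member at that locus, XLOC_044519, at 1.10 and 0.211. The row of Ccne1 hardly differed, at 29.2 and 29.5. XLOC_022068 at the locus of the phosphatase gene Ppm1b stood at 0.865 and 3.88, and the zinc finger gene Zfp970 tagged XLOC_031065 at 0.323 and 2.37. XLOC_040170, at the locus of Fbrsl1, stood at 3.22 and 9.38, and its neighbour XLOC_040171 at 4.59 and 8.23, while Fbrsl1 itself stood at 3.64 and 3.20. XLOC_021786 at the Gm20098 locus stood at 2.03 and 6.37.

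After the Gstp3 member, the most abundant member at least 2-fold lower was tagged Mmd, which encodes a membrane protein of the progestin and adipoQ receptor family. XLOC_007503 stood at 83.1 FPKM in the WT-APC library and 24.2 in the OX40L-TG-APC library, a change of -1.74. The row of Mmd stood at 35.4 and 14.5, and the log2 ratio of Mmd is -1.25 in the authors' deposited table, beside a p-value of 0.00805, which compares the 2 libraries.

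The lowest changes were mostly of members listed at 0 with OX40L-TG APCs. These were XLOC_041185 at the locus of the kinase gene Hipk2 and of Tbxas1 (5.54 FPKM with WT-APCs), XLOC_002130 tagged with the aldehyde oxidase gene Aox3 (4.67) and XLOC_001169 tagged Rgl1 (3.90). XLOC_024259, at the locus of the cholesterol transporter gene Npc1 with Riok3 and Rmc1 (3.76) and XLOC_026827 at the A930004D18Rik locus (3.16) were also listed at 0. No ratio is given for these. Above 0 in both libraries were XLOC_043738, tagged Clec2g, at 7.01 and 0.838, and XLOC_014871, tagged with the deubiquitinase family gene Usp54, at 4.56 and 0.371.

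Several loci held many members. These loci were singled out after their values were seen. Of the 53 loci with several members, 24 had all of them lower with OX40L-TG APCs, 6 had all of them higher and 23 had both. Of all 420 members 298 were below 0, so nothing particular to these loci is read from the counts. At the 9 loci with at least 5 members, which held 55, every member was lower at 5 loci and members went both ways at 4.

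The fullest locus (chr6:128934380-128984707) had 11 members, of which 10 were tagged Clec2g. Clec2g belongs to a family of C-type lectin genes in the natural killer gene complex, and it had no row of its own. All 10 were lower with OX40L-TG APCs. The 3 highest, XLOC_043736, XLOC_043738 and XLOC_043739, stood at 7.46 and 1.91, at 7.01 and 0.838, and at 3.85 and 1.65. The rest ran from 2.67 to 3.78 with WT-APCs and from 0.307 to 1.53 with OX40L-TG APCs. Changes were past 2-fold for 5 of the 10. XLOC_043730, tagged Gm15987, stood at 1.92 and 0.848 and the row of Gm15987 at 2.03 and 1.23, also lower.

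Art2a showed a similar run. It is a pseudogene beside Art2b, which encodes a surface enzyme of T cells that transfers ADP-ribose to other surface proteins. It had no row of its own, and the printed locus (chr7:101108774-101857681) took in 9 Entrez rows. All 5 Art2a members were lower with OX40L-TG APCs, at 11.9 and 4.27, 9.97 and 3.89, 10.8 and 7.65, 14.6 and 4.52, and 5.35 and 3.67, and 3 of them were past 2-fold. The row of Art2b stood at 1.43 and 0.849. Art2a and Art2b are close copies, so the split of reads between them is uncertain.

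Pde3b encodes a phosphodiesterase that breaks down cyclic AMP. At its locus (chr7:114315478-114537937) all 5 members were lower with OX40L-TG APCs, 4 of them past 2-fold. They stood between 3.06 and 3.42 with WT-APCs and between 0.490 and 1.45 with OX40L-TG APCs, and the row of Pde3b at 27.9 and 15.6 was lower too. The 7 members at the locus of the ubiquitin-conjugating enzyme gene Ube2h (chr6:30211288-30304539) ran from 1.64 to 3.10 and from 0.906 to 1.95. All 7 were lower but 0 reached 2-fold, and the row of Ube2h stood at 18.6 and 16.0. The 5 members at the locus of Phxr4 and Maml2 were also all lower, with 0 past 2-fold.

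Other crowded loci were mixed. At the locus that covers Ccr6, the gene of the chemokine receptor that Th17 cells carry (chr17:8165517-8327442), the members stood at 13.1 and 9.01, 1.84 and 2.46, 1.79 and 2.02, 2.26 and 2.31, and 1.89 and 1.76. The row of Ccr6 stood at 8.99 and 4.70. The locus also covers Sft2d1, Mpc1 and Cep43, and the tag of these members begins with n and names no gene. Which gene they belong to is thus not given. At the loci of Ppm1b, Cpeb2 and Zfp689, 12 of 17 members were lower.

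**Figure D3:**
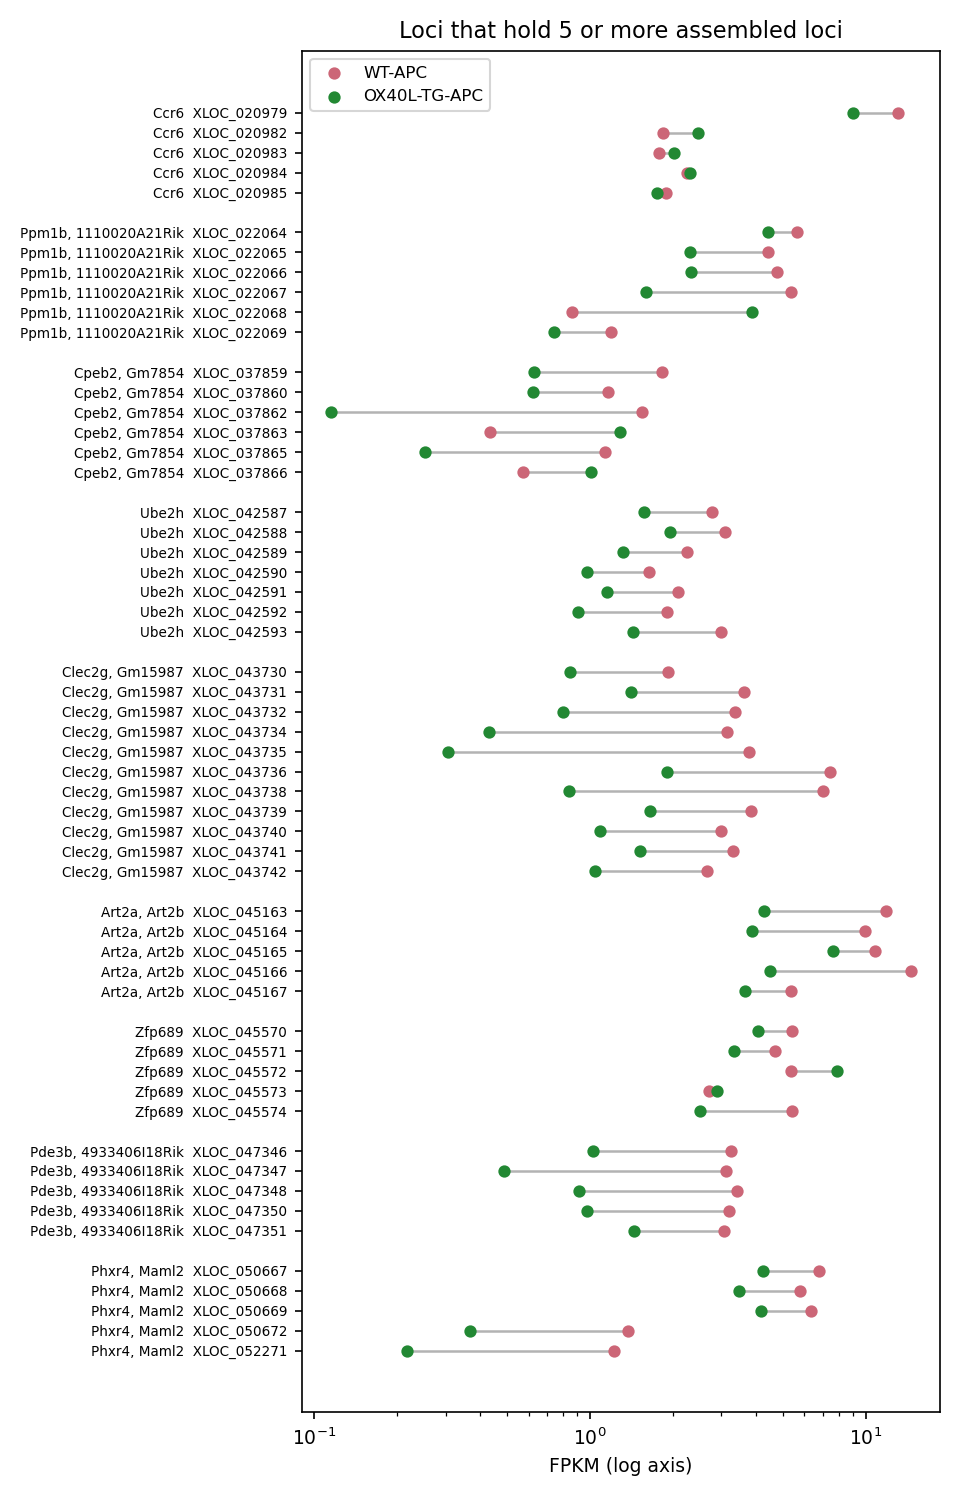
FPKM on a log axis in the WT-APC library (red) and the OX40L-TG-APC library (green) for the 55 members at the 9 printed loci with at least 5 members, 1 line per member, labelled by genes of the locus and XLOC identifier. Every green point lies left of its red partner at the Clec2g, Art2a, Pde3b, Ube2h and Maml2 loci, and the points go both ways at the other 4.

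Changes of members were compared with those of genes at the same locus. Each member was set beside the row of its tagged gene or, failing that, an Entrez row of the same locus. For 330 members both rows reached 1 FPKM, and 71 of these (21.5%) had changes at least 2-fold apart, 60 with the member lower and 11 with it higher. Pairs of Entrez rows at 1 locus were at least 2-fold apart in 6.42% of 2025 cases, and n rows against the only Entrez row of their locus in 1.32% of 1285. With the tagged gene or the only Entrez row of the locus, 43 of 230 pairs (18.7%) were apart, 36 with the member lower and 7 with it higher. With the tagged gene alone, 21 of 133 pairs (15.8%) were apart. Level entered again: of the 90 such pairs whose member reached 1 FPKM in both libraries 5 were apart (5.56%), and of the 32 whose member did so only with WT-APCs 14 were (43.8%). The 6.42% of pairs of Entrez rows asked only that the larger FPKM be at least 1, so it is no like measure for the 5.56%. Under that looser filter the pairs with the tagged gene stood at 15.8%. The members that passed only with WT-APCs had to differ between the libraries by the way they passed. Across the 133 pairs Pearson's r between the changes was 0.37 and Spearman's rho 0.21. These values describe pairs that share both libraries and, within a pair, possibly reads.

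**Figure D4:**
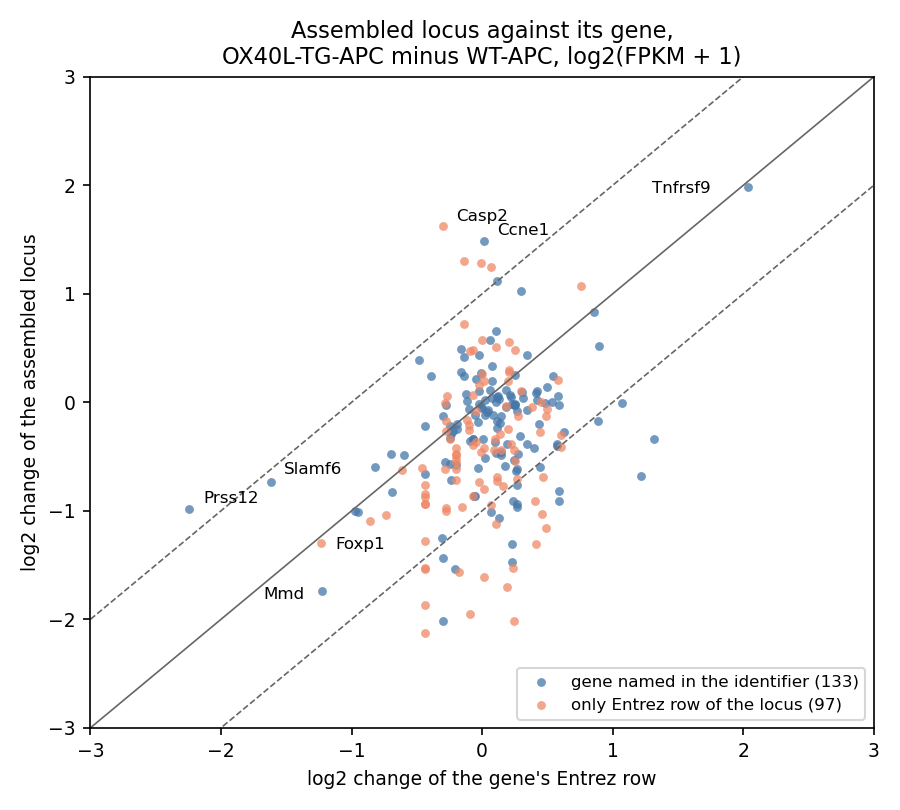
Log2 change of FPKM + 1, OX40L-TG-APC minus WT-APC, of the Entrez row (x axis) and of the assembled locus set beside it (y axis), for the 230 pairs with the tagged gene (blue, 133) or the only Entrez row of the locus (orange, 97) in which both rows reached 1 FPKM. The solid line is equality, and of the 43 points at least 2-fold apart, outside the dashed lines, 36 lie where the assembled locus is the lower of the 2.

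The widest gaps included those of members named above, at the Npc1, Hipk2 and Casp2 loci. Further ones were at low levels: XLOC_001007 at the locus of Etnk2 and Plekha6 stood at 2.35 and was listed at 0, and XLOC_046576 at the Sergef locus stood at 3.35 and 0.333. Each of these members reached 1 FPKM in 1 library only, so it had to differ between the libraries. At the Npc1, Hipk2 and Etnk2 loci several genes shared the locus, and the one with the lowest identifier was used. Among the 330 pairs 69 members and 9 genes were past 2-fold. In 3 pairs member and gene were both past 2-fold in the same direction, too few to read as agreement. These were Tnfrsf9, Mmd and Foxp1, a transcription factor gene that keeps naive T cells quiescent. The Foxp1 member reached 1 FPKM only with WT-APCs, so it had to be lower with OX40L-TG APCs. XLOC_043384 at the Foxp1 locus stood at 1.45 and 0.00149, and the row of Foxp1 at 19.3 and 7.63, and the log2 ratio listed for this gene in the authors' deposited table is -1.31 (p-value 0.00425). That table has 398 rows, 0 of them XLOC rows, and it holds the gene of 7 members.

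Some genes of those 7 were past 2-fold on the log2(FPKM + 1) scale while their assembled locus was not. Slamf6, a receptor of lymphocyte adhesion, stood at 28.0 and 8.45 in its own row, and XLOC_003206, which shares its locus, at 3.72 and 1.83. Both were lower with OX40L-TG APCs, and the plain FPKM ratio of this member, WT-APC over OX40L-TG-APC, was 2.03. Crem, a repressor and activator of cyclic AMP responses, stood at 16.9 and 51.0, and XLOC_024202 at 1.56 and 2.11. For Kcnk7 the directions were opposite: the gene stood at 6.06 and 15.4 and the member at 1.15 and 0.342, a plain ratio of 3.36. This member reached 1 FPKM only with WT-APCs, so it had to be lower in the other library. Tet1, which oxidises methylated cytosine, stood at 0.205 and 0.913 with XLOC_005509 at its locus at 0.102 and 1.12. Both were higher with OX40L-TG APCs and both short of 2-fold on the log2(FPKM + 1) scale. XLOC_005509 reached 1 FPKM only with OX40L-TG APCs, so it had to be higher there.

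Some genes tied to the study's question shared a locus with a member. Over all rows 2.46% were higher and 6.68% lower, and over members 3.57% and 19.5%, so 4 members are too few to read a share. A list of 32 genes of Th17 and OX40 biology met 4 members, 1 of them past 2-fold higher (Tnfrsf9) and 1 lower. The lower one, XLOC_002392, lies at the locus of Ccl20, the ligand of Ccr6, but is tagged with the neighbouring dynein assembly gene Daw1. It stood at 1.00 and was listed at 0, while the row of Daw1 stood at 1.09 and 0.0669. XLOC_007752, at the locus of Stat3 and Stat5a and tagged Stat5a, stood at 2.10 and 2.66, and the row of Stat5a, a transcription factor downstream of interleukin 2, at 56.9 and 83.4. XLOC_011509 at the locus of Ahr, which encodes the ligand-activated aryl hydrocarbon receptor, stood at 1.30 and 1.12, against 101 and 79.2 for Ahr.

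Other lists met up to 7 members each. Over all rows 2.46% were higher and 6.68% lower, and over members 3.57% and 19.5%. With so few members per list, no share is read from the counts. Of 4 members at loci of T cell signalling genes 0 were higher and 2 lower, both of which reached 1 FPKM only with WT-APCs. These were the Foxp1 member and XLOC_030417, tagged Acoxl, at the locus of the death gene Bcl2l11, at 1.73 and 0.103. At loci of cytokines, chemokines and their receptors there were 7 members, 5 of them at the Ccr6 locus, and 0 reached 2-fold. XLOC_000224, at the locus of the decoy receptor gene Il1r2, stood at 1.08 and 1.09 although Il1r2 itself stood at 14.1 and 20.9. Of 4 members at loci of cell cycle and chromatin genes 0 were lower and 1 was higher (Ccne1), which reached 1 FPKM only with OX40L-TG APCs. Loci of cholesterol, glycolysis and stress response genes held 0 members, and so did loci of B cell genes and of myeloid genes.

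Of the 44 members tagged with a long noncoding RNA gene 1 was at least 2-fold higher (9130015A21Rik) and 2 lower, with a median change of -0.10. Such numbers are near the shares over all rows, 2.46% and 6.68%. Members tagged with hosts of small nucleolar RNAs stood at 9.46 and 9.53 (Snhg8), 5.20 and 5.38 (Snhg7) and 6.56 and 6.89 (Snhg17). The rows of these genes stood at 35.0 and 32.3, at 12.9 and 13.7, and at 4.56 and 5.07. Pvt1, the noncoding neighbour of Myc, stood at 7.82 and 9.45 in XLOC_017418 and at 2.82 and 1.92 in its own row, so the 2 rows went opposite ways. The lower long noncoding member with most FPKM was XLOC_038491, tagged A630023P12Rik, at 12.5 and 5.70, and that gene's row was lower as well, at 5.56 and 2.39. Of the 179 members tagged with a protein-coding gene 7 were higher and 35 lower, with a median of -0.29, and of the 6 tagged with a transcribed pseudogene 0 were higher and 3 lower, all 3 of them Art2a.

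A pair of members carried the tag of a miRNA gene. The mature sequences are given because the tag is all that identifies these loci. They are from RefSeq on GRCm38.p6, 5′ to 3′, with the seed (bases 2 to 8) in capitals, and the 4 seeds differ from each other.
mmu-miR-210-3p: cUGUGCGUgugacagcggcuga
mmu-miR-210-5p: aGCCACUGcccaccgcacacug
mmu-let-7d-3p: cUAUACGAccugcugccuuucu
mmu-let-7d-5p: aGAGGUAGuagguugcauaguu
Mir210 is known as a hypoxia-induced miRNA, and let-7 miRNAs as brakes on growth genes. XLOC_047725, tagged Mir210 at the Rassf7 locus (chr7:141215859-141221856), stood at 1.97 and 3.15, a change of 0.48. XLOC_013990, tagged Mirlet7d at the locus of Ptpdc1 and Zfp169 (chr13:48044230-48640402), stood at 7.16 and 6.83, a change of -0.06. Neither reached 2-fold. The values are of the longer transcripts at these loci in an RNA library, not of the mature miRNAs.

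Of 234 members with an Entrez tag 8 were higher and 40 lower (17.1%), with a median change of -0.26. Of 177 with an n tag 7 were higher and 42 lower (23.7%), with a median of -0.42. Over all members 3.57% were higher and 19.5% lower, and over all rows 2.46% and 6.68%. Among members at 1 FPKM or more in both libraries, 5.38% with an Entrez tag and 6.38% with an n tag were lower. No difference between the 2 kinds of tag is read from these counts. The 38 members whose tagged gene had no row stood further down, with 1 higher, 14 lower (36.8%) and a median of -0.83. Of these 38, 21 reached 1 FPKM in both libraries, and 4 of the 21 were lower. The Clec2g and Art2a members made up 15 of the 38. Among the others without a gene row, XLOC_005117, tagged with H60b, a ligand gene of the activating receptor NKG2D, stood at 13.6 and 7.31. XLOC_012497, tagged Btn1a1, stood at 0.436 and 2.40, the 1 member of this kind past 2-fold higher.

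The libraries also differed in markers of other cells. Summed over 8 B cell markers, FPKM came to 52.8 in the WT-APC library and to 22.6 in the other, where all 8 were lower. That of 7 monocyte and macrophage markers was 11.4 and 5.24, with 6 lower and 3 reaching 1 FPKM. That of 7 dendritic cell markers was 6.97 and 23.7, with 5 lower although the sum was higher, 2 reaching 1 FPKM and Xcr1, Clec9a and Siglech under 0.1. Measured T cell markers, 7 of 8 sought, summed to 1496 and 1524. The part of these cells in the lower and higher assembled loci was not tested, and in bulk RNA fewer cells of a type and less RNA per cell cannot be told apart. Depth read from the steps of low FPKM of 88 single-transcript genes came to about 23600000 fragments in the WT-APC library and 27000000 in the OX40L-TG-APC library. For the members such steps were not readable, and their assembled lengths are not in the table, so no counting interval is given and members near 1 FPKM may rest on few fragments.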

How the data were processed

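The authors deposited FPKM values for each row in both libraries, per the file headers, and a filtered comparison table with FPKM, log2 ratios and p-values. TopHat2 aligned the reads and Cuffdiff gave the values, per the submitters' processing notes, which name the build mm9. The printed coordinates follow GRCm38: 99.7% of Entrez rows overlapped their GRCm38 gene. Versions, gene models, strand handling, filters and the meaning of the n identifiers are not given in the sources used here. FPKM depends on the assembled transcript length, which the table does not hold.

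From these values the change log2(FPKM + 1), OX40L-TG-APC minus WT-APC, was computed for rows with a larger FPKM of at least 1 and called at 2-fold, with no test because each condition had 1 library. The scripts were tested on simulated data. Every member shared its whole locus with an Entrez row, so overlap lengths were tied. The tagged gene was then used, or otherwise the lowest identifier. Python 3.11.15 with pandas 2.3.3, numpy 2.4.6 and matplotlib 3.10.9 was used. RefSeq and GENCODE gave symbols, classes and sequences, and 13030 of 13056 Entrez identifiers matched.

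Named members were the 8 most abundant, the 8 highest and 8 lowest changes, the 6 widest gaps to a gene, list members past 2-fold, all members of the question list and 3 on each side of the threshold. A member that this rule names is not reported here. Others were picked after their values were seen: the crowded loci, the noncoding, miRNA and untabled tags, the Il1r2 locus, XLOC_040171, XLOC_044519, and the genes of the authors' comparison table. The members and the lists were chosen with earlier results of these data known. Alternatives were the pseudocount, the filter, the scaling, the overlap rule, and 4 added after the data were seen.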

Additional observations from a re-analysis of the deposited data

How the results depend on the processing

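No paired analysis was possible because each condition had 1 library, and none could be left out. A pseudocount of 0.1 gave 31 higher and 140 lower assembled loci, a median log2 change of -0.48 and 120 loci at least 2-fold apart from their gene. A pseudocount of 5 gave 2, 5, -0.13 and 5, with 28.6% of calls higher against 15.5% as reported. The 2 higher were those tagged Tnfrsf9 and 9130015A21Rik, and the 5 lower included those tagged Mmd, Clec2g (XLOC_043738) and Art2a (XLOC_045166) and that at the Hipk2 locus. A larger FPKM of at least 5 left 76 loci and gave 4, 12, -0.21 and 7, with 25.0% of calls higher. No filter moved the median to -0.17 over 709 loci, which add rows under 1 FPKM. Setting the median ratio of well-expressed Entrez genes to 1 moved the median to -0.39, with 13 higher and 88 lower, and that of all rows from 0.05 to -0.06. Equal FPKM totals gave 13 and 84. Stricter overlap lengths changed none of the 4 values, since every locus was shared whole. Counting only Entrez rows at 1 FPKM or more kept 348 loci and gave 13, 61, -0.32 and 75.

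Of the alternatives added after the data were seen, both FPKM at least 1 gave 4, 13, -0.12 and 19. Leaving out loci listed at 0 gave 43 lower. Summing the members of a printed locus gave 8 higher. Pairing with the tagged or only Entrez row alone gave 43 apart. The median stayed below 0 in each setting run. Depth per assembled locus could not be read, so counting error near 1 FPKM is not bounded.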
